A study of Homo sapiens with 3 samples.

Results

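R-loops are three-stranded structures in which newly made RNA pairs with its template DNA and leaves the other DNA strand free, and the study asked how their positions relate to i-motifs and G-quadruplexes, four-stranded structures of C-rich and G-rich DNA. Cells limit R-loops in several ways. RNase H enzymes cut the RNA of the hybrid, helicases unwind it, topoisomerases remove the negative supercoils that favour it, and the THO complex packages nascent RNA so that it cannot pair again. Expression of 9 such genes was described here, out of 61193 genes with values. They are RNASEH1, the 3 subunit genes of RNase H2 (RNASEH2A, RNASEH2B and RNASEH2C), the helicase gene AQR, the topoisomerase genes TOP1 and TOP3B, and the THO genes THOC1 and THOC2. They were chosen by name and function, not by their measured values.

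The data are RNA-seq of untreated HEK293T cells, a line derived from human embryonic kidney that carries the large T antigen of SV40. There was 1 condition with 3 replicates, which the study's methods call independent and biological. No groups were compared, no test between conditions was possible, and errors are SDs over the 3 replicates. In such bulk samples, fewer cells with a transcript and less of it per cell cannot be told apart. Total RNA was made into QuantSeq 3′ libraries, where oligo-dT priming restricts the reads to the ends of transcripts next to the poly(A) tail. The labels list the material as genomic DNA and the study's methods as total RNA. The libraries held 6262175 to 8521624 counted reads, and genes of the mitochondrial genome took 5.70% to 25.8% of them, most in replicate 3. Of 6 genes known from HEK293 lines, 3 were expressed (INA, PAX2 and LIN28B), whereas VIM was under 1 TPM and NEFM and NEFL had 0 counts. None of 8 genes of differentiated kidney cells and none of 4 genes of blood and endothelium reached 1 TPM.

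TOP1 was by far the most abundant of these genes, RNASEH1, RNASEH2A and AQR followed at means of 48.7 to 25.5 TPM, THOC1, RNASEH2B, THOC2 and RNASEH2C had 5.47 to 1.48 TPM, and TOP3B had no counted read. TPM is the count divided by transcript length and rescaled to 1000000 per library, so it states counts per unit length. The reads here come from transcript ends, so their number need not grow with length. Some comparisons are therefore also given in counts per 1000000, without division by length. A gene was taken as expressed at a mean of at least 1 TPM, which 8 of the 9 genes reached. That mean was reached by 21.7% of all genes and 38.2% of protein-coding genes. With transcripts of the type protein_coding alone, however, RNASEH2C was at 0 and THOC2 at 0.120 TPM, both below that threshold, and the most abundant single transcript of THOC2 had 0.998 TPM. The median of the 9 mean levels was 5.47 TPM, compared with 0.195 TPM over all 19926 protein-coding genes and 10.5 TPM over the 7616 expressed ones.

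**Figure D1:**
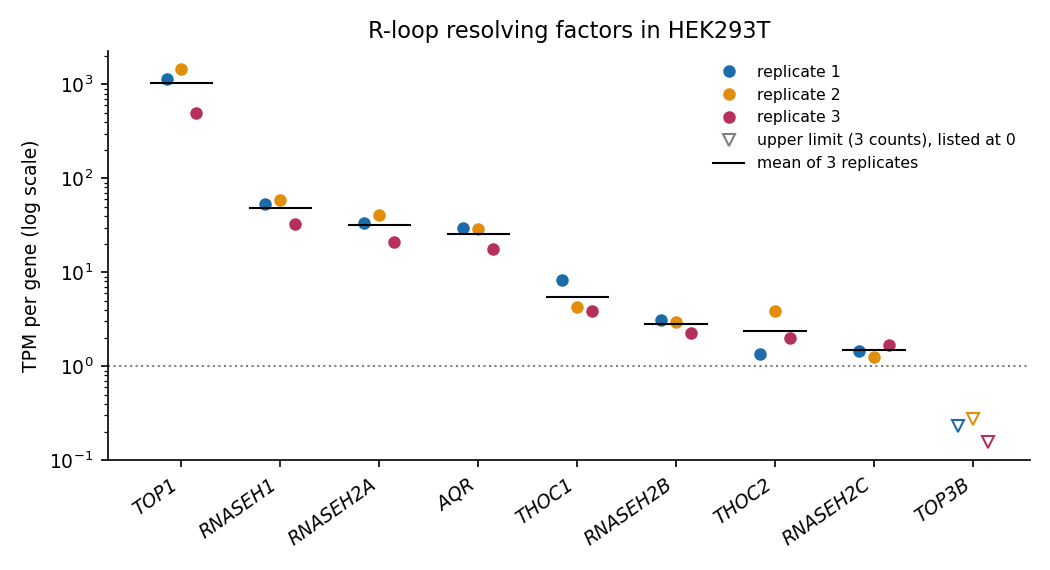
TPM of each gene (log scale) in replicates 1, 2 and 3 of HEK293T cells, with the mean as a horizontal line and the threshold of 1 TPM dotted. TOP1 lies highest, at 503 to 1448 TPM, and TOP3B, listed at 0, is drawn as open triangles at the limit that 3 counts would give.

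Topoisomerase I, the product of TOP1 (ENSG00000198900, chromosome 20 of GRCh38 from 41028822 to 41124487, plus strand), relaxes the supercoils that arise behind RNA polymerase. TOP1 had 19593, 20724 and 12516 counts in replicates 1, 2 and 3, which gave 1156, 1448 and 503 TPM. Its mean was 1036 ± 484 TPM (SD, n = 3), above 99.1% of the expressed protein-coding genes. It held 86.4% of the counts of the 9 genes and 89.8% of their summed mean TPM. Replicate 3 was the lowest and replicate 2 the highest, and even the lowest value lay above every value of the other 8 genes. TOP1 exceeded RNASEH1, the next gene, by 4.32 ± 0.35 on the log2 scale. Its counts per 1000000 varied by 37.6% between replicates (SD over mean), whereas counting error alone would give 0.754%. The 2 protein-coding genes closest to TOP1 in log2(TPM + 1) over these 3 samples of 1 condition were PA2G4, at a Euclidean distance of 0.197 with 1125, 1364 and 445 TPM, and TRIAP1, at 0.218 with 1189, 1304 and 559 TPM.

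TOP2A, the topoisomerase II isoform of dividing cells, had 20295, 21815 and 19192 counts and a mean of 764 ± 248 TPM. The log2 ratio of TOP1 to TOP2A in TPM was 0.36 ± 0.32 (SD, n = 3), with 0.56, 0.53 and -0.0082 in replicates 1, 2 and 3, so TOP1 was above TOP2A in 2 of the 3 replicates. In counts per 1000000 the direction turned, with a log2 ratio of -0.25 ± 0.32 and TOP2A above TOP1 in all 3 replicates. TOP3B (ENSG00000100038, chromosome 22 from 21957025 to 21982813, minus strand) encodes a topoisomerase that acts on both DNA and RNA with its partner TDRD3. It had 0 counts on all of its 17 listed transcripts in every replicate. A count of 0 allows up to 3 counts, or 0.231, 0.273 and 0.157 TPM at the length of its canonical transcript in replicates 1, 2 and 3, counting error only. Its expression was thus not detected in these counts, and the limit covers only reads that the counting could assign to TOP3B. TDRD3 itself had 4.27 ± 0.507 TPM and the related topoisomerase gene TOP3A 7.09 ± 0.615 TPM. Of the final 300 exonic bases of canonical TOP3B, 0.667% belong to no other listed transcript, 64.8% of the 31-base words in them also occur in the pseudogene TOP3BP1, and the opposite-strand gene PPM1F-AS1 overlaps them. TOP3BP1 had 1, 0 and 0 counts. The part of this overlap in the absence of counts was not tested.

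RNASEH1 (ENSG00000171865, chromosome 2 from 3541430 to 3558333, minus strand) encodes the monomeric RNase H of nucleus and mitochondria, which needs a run of ribonucleotides to cut. It had 1289, 1203 and 1163 counts and 53.7, 59.3 and 33.0 TPM, with a mean of 48.7 ± 13.9 TPM (SD, n = 3). Its counts per 1000000 varied by 17.6% between replicates (SD over mean), whereas counting error alone would give 2.86%. All of its counts lay on the canonical transcript, RNASEH1-201. Its pseudogenes RNASEH1P1 and RNASEH1P2 had 0 to 2 counts, and none of the 31-base words at the 3′ end of RNASEH1 occurs in another gene.

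RNase H2 is a heterotrimer that also removes single ribonucleotides from DNA. RNASEH2A encodes its catalytic subunit, and RNASEH2B and RNASEH2C encode the auxiliary subunits. RNASEH2A (ENSG00000104889, chromosome 19 from 12806584 to 12813640, plus strand) had 310, 315 and 288 counts and 33.9, 40.6 and 21.0 TPM. RNASEH2B (ENSG00000136104, chromosome 13 from 50909747 to 51024120, plus strand) had 55, 56 and 63 counts and 3.13, 2.99 and 2.26 TPM. RNASEH2C (ENSG00000172922, chromosome 11 from 65714005 to 65720818, minus strand) had 11, 8 and 18 counts and 1.47, 1.27 and 1.69 TPM. The ranges of the 3 subunits did not overlap, and RNASEH2A was above RNASEH2B and RNASEH2B above RNASEH2C in every replicate. These values are sums over all listed transcripts, and RNASEH2B and RNASEH2C had 0 counts on their canonical transcripts. With transcripts of the type protein_coding alone, RNASEH2C was at 0 TPM.

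The means were 31.8 ± 9.93 TPM for RNASEH2A, 2.79 ± 0.470 TPM for RNASEH2B and 1.48 ± 0.211 TPM for RNASEH2C (SD, n = 3). The log2 ratio in TPM was 3.47 ± 0.27 for RNASEH2A over RNASEH2B, 4.39 ± 0.69 for RNASEH2A over RNASEH2C and 0.92 ± 0.44 for RNASEH2B over RNASEH2C. Without division by length these log2 ratios were 2.39, 4.71 and 2.31, and with GENCODE v44 lengths the first and second were 4.35 and 5.27. RNASEH1 was above RNASEH2A by 0.62 ± 0.063 on the log2 scale, in all 3 replicates, but below it with other transcript lengths, as follows. The length deposited for the canonical RNASEH2A transcript is 2753 bases, while GENCODE v44 gives 1164. With the v44 lengths RNASEH2A had 58.4 ± 17.9 TPM, compared with 48.6 ± 13.8 TPM for RNASEH1. The counts per 1000000 of RNASEH2B varied by 9.91% and those of RNASEH2C by 25.7% between replicates, no more than the 13.1% and 28.5% that counting error alone would give. The counts of RNASEH2C were too few to separate replicates, since exact 95% Poisson intervals ran from 3.45 to 15.8 counts in replicate 2 and from 10.7 to 28.4 in replicate 3.

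AQR (Aquarius, ENSG00000021776, chromosome 15 from 34851782 to 34969742, minus strand) encodes an RNA helicase of the spliceosome whose loss is known to raise R-loops. It had 1271, 1049 and 1098 counts and 29.9, 28.6 and 17.8 TPM, with a mean of 25.5 ± 6.69 TPM (SD, n = 3). RNASEH2A lay above AQR in every replicate in TPM, by 0.31 ± 0.17 on the log2 scale. In counts per 1000000, without division by the 9597 bases of its canonical transcript, AQR was at 159 ± 27.1, close to the 171 ± 29.97 of RNASEH1 and above the 42.8 ± 8.34 of RNASEH2A. AQR was thus placed above or below RNASEH2A depending on the division by length.

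THOC1 (ENSG00000079134, chromosome 18 from 214520 to 268050, minus strand) and THOC2 (ENSG00000125676, chromosome X from 123600561 to 123733056, minus strand) encode core subunits of THO. THOC1 had 29, 16 and 22 counts and 8.26, 4.25 and 3.89 TPM, with a mean of 5.47 ± 2.43 TPM (SD, n = 3). THOC2 had 4, 15 and 8 counts and 1.36, 3.84 and 1.99 TPM, with a mean of 2.40 ± 1.29 TPM. The ranges of THOC1 and THOC2 met closely without overlapping, at 3.89 and 3.84 TPM, but these values come from different replicates. For THOC2 the exact 95% Poisson interval ran from 1.09 to 10.2 counts in replicate 1 and from 8.40 to 24.7 in replicate 2, so these replicates overlap within counting error. The gene USP14 overlaps the 3′ end of THOC1 on the opposite strand, and the strand setting of the counting is not given in the sources used here. The other THO subunits were also uneven, with 17.2 ± 5.42 TPM for THOC3, 7.67 ± 2.53 TPM for THOC5, 0.524 TPM for THOC7 from 4, 1 and 0 counts, and 0 counts for THOC6.

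In the order of mean TPM, 6 of the 8 pairs of neighbours were in that order in every replicate. The exceptions were RNASEH2B and THOC2, and THOC2 and RNASEH2C, each in this order in 2 of 3 replicates, so these genes were not separated by the replicate error. By the quartiles of the 13296 expressed genes (2.40 and 24.1 TPM), TOP1, RNASEH1, RNASEH2A and AQR were at high expression, THOC1, RNASEH2B and THOC2 at medium and RNASEH2C at low expression. THOC2 lay at the boundary itself. AQR, RNASEH2B and THOC2 changed category between single replicates, and the other 6 genes kept theirs. High expression holds, by definition, the top 25% of all expressed genes. Without division by length, THOC1 was below RNASEH2B in all 3 replicates, with means of 3.09 and 8.06 counts per 1000000.

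The transcripts on which the reads were counted differed between the genes. Only TOP1, RNASEH1, AQR and RNASEH2A had counts on the canonical transcript, which held 100%, 100%, 98.8% and 83.4% of their counts. For RNASEH2B, 81.6% of the counts lay on RNASEH2B-202, a coding transcript whose 3′ end lies 16983 bases past the canonical one. For RNASEH2C, 86.5% lay on RNASEH2C-212, a transcript without a defined coding region, and 13.5% on a transcript with a retained intron. For THOC1, 53.7% lay on THOC1-217, a coding fragment that stops 31548 bases short of the canonical 3′ end, and 46.3% on transcripts with retained introns. For THOC2, 77.8% of only 27 counts lay on transcripts with retained introns. The gene values of RNASEH2B, RNASEH2C, THOC1 and THOC2 therefore hold no reads assigned to the canonical mRNA.

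**Figure D2:**
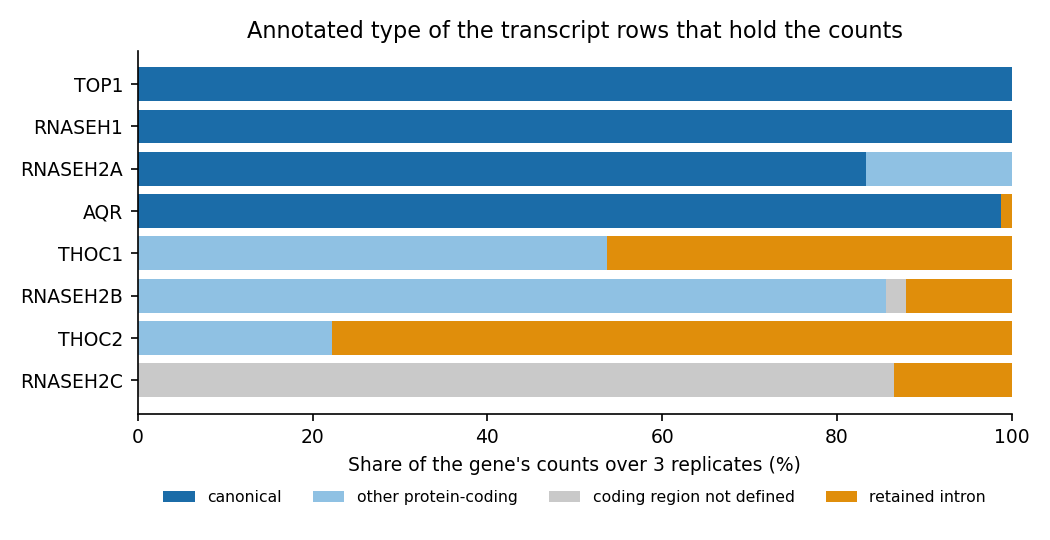
Share of each gene's counts, summed over the 3 HEK293T replicates, by the annotated type of the transcript (horizontal axis, percent), for the 8 genes with counts. The canonical transcript holds the counts of TOP1 and RNASEH1, 98.8% of those of AQR and 83.4% of those of RNASEH2A, and 0% in THOC1, RNASEH2B, THOC2 and RNASEH2C.

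The annotation at the 3′ end moved with these counts. In the canonical transcript, the final 300 exonic bases belong to that transcript alone in TOP1, RNASEH1 and AQR, whereas they are shared throughout with other listed transcripts on the same strand in RNASEH2B, RNASEH2C, THOC1 and THOC2. In RNASEH2A 19.7% of them are its own, and the gene THSD8 covers the end on the same strand. Of the 31-base words there, 78.1% also occur in THSD8, and the part of this overlap in the counts of RNASEH2A was not tested. TOP1 has a single listed transcript, RNASEH2B has 46. Of 132 listed transcripts of the 9 genes, 61 have no exonic base of their own, and none of these 61 had a count. Of the other 71, 23 had counts. The same shares over all listed transcripts are not given here, so these are not read as a trait of the 9 genes. If reads on several transcripts were left uncounted, a transcript without own bases could hold no count. Over protein-coding genes, 53.4% of the 7600 whose last 300 bases are their own were expressed, compared with 26.0% of the 7840 whose last 300 bases are shared throughout. The part of shared 3′ ends in the low values of RNASEH2B, RNASEH2C, THOC1, THOC2 and TOP3B was not tested. TOP2A was at high expression with only 0.333% of these bases its own. For the canonical transcripts of RNASEH2A, RNASEH2B, RNASEH2C and TOP3B the deposited version and length differ from GENCODE v44, so the description of these 4 ends may not be that of the annotation used in the counting.

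**Figure D3:**
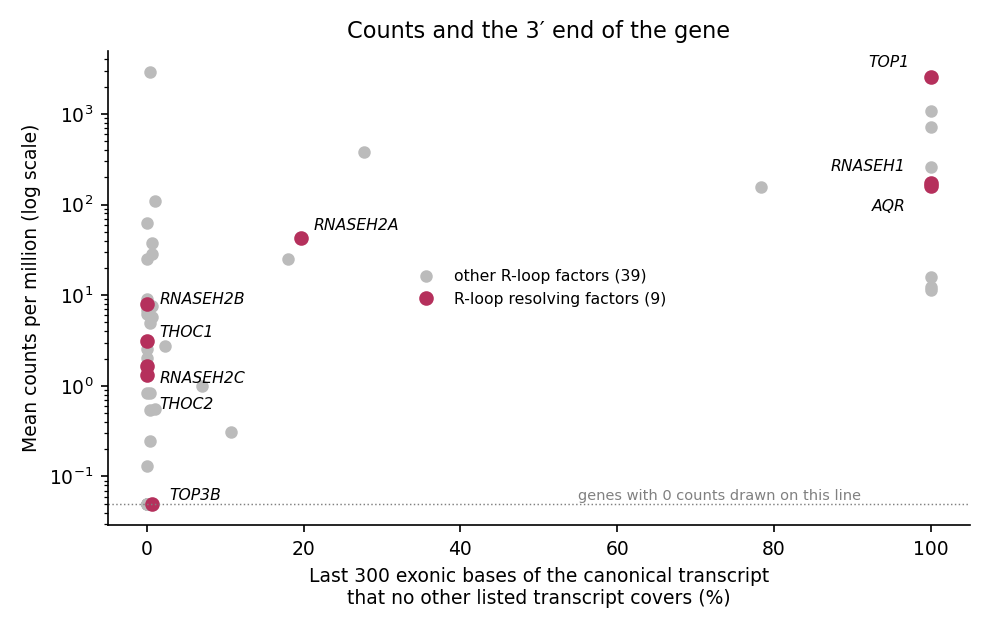
Mean counts per 1000000 over 3 HEK293T replicates (log scale) against the percentage of the final 300 exonic bases, in the canonical transcript, that are in no other listed transcript, for the 9 genes and 39 other R-loop factors. TOP1, RNASEH1 and AQR lie at 100% with 159 or more counts per 1000000, and the 4 genes at 0% lie at 8.06 or fewer.

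Because these libraries read the 3′ end, that end is shown for 4 of the 5 genes with at least 50 counts in each replicate, for the coding transcript with the most counts among those whose deposited version is that of GENCODE v44. Given are the last 30 bases on the strand of the gene, from GENCODE v44 on GRCh38, with the poly(A) signal AATAAA in capitals where it occurs.
TOP1-201 (chr20:41124458-41124487, plus strand): ttaaAATAAAttcctacaacttaatggaaa
RNASEH1-201 (chr2:3541430-3541459, minus strand): taaagcaAATAAAgctgccgtgaacattta
AQR-201 (chr15:34851782-34851811, minus strand): atgcagtaaaagaagagtttgtatttccaa
RNASEH2A-202 (chr19:12807947-12807976, plus strand): aaaaAATAAActaaaaatgggagaccaggc

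TOP1-201, RNASEH1-201 and RNASEH2A-202 hold the signal with 17 to 20 bases after it, and AQR-201 does not hold these letters in its last 40 bases. RNASEH2A-202, which ends 5664 bases short of the canonical RNASEH2A end, held 53, 53 and 46 counts. Among canonical transcripts, 6 of the 9 genes hold AATAAA in the last 40 bases, compared with 62.1% of 19351 protein-coding genes.

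Promoters were searched for putative i-motif or G-quadruplex sequences, since these structures are the subject of the study. The motif was 4 runs of at least 3 C separated by 0 to 7 bases of any kind, or the same with G. A G match is the C motif on the other strand, so a single match can be read as either structure. Each match stops after 4 runs, so further runs beside it stay in lower case or begin another match. The windows are those of RefSeq on GRCh38.p14, from 250 bases before to 50 after the start, and all 9 genes matched by symbol, with 2 windows for RNASEH2B. RNASEH1, AQR and RNASEH2C held the motif, 3 of 9 genes, compared with 38.8% of 15332 protein-coding genes with a window and 26.8% of all 35116 windows. The G and C content of the 10 windows of these genes was 55% to 70.3%, around the median of 62.3% over protein-coding windows. These 3 promoters are printed on the strand of the gene with the motif in capitals.
RNASEH1 promoter (chr2:3558284-3558583, minus strand): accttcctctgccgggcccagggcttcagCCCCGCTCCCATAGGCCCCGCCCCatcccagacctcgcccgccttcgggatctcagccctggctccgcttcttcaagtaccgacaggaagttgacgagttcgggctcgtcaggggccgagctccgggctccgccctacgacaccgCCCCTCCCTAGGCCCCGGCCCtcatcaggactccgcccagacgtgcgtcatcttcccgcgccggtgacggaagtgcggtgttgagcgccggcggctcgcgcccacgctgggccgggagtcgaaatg
AQR promoter (chr15:34969693-34969992, minus strand): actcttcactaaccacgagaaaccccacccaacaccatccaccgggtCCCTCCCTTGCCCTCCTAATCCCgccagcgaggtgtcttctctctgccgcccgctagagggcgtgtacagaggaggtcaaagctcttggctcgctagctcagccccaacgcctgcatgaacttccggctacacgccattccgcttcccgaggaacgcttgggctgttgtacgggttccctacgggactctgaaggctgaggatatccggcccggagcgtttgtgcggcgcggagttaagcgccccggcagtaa
RNASEH2C promoter (chr11:65720749-65721048, minus strand): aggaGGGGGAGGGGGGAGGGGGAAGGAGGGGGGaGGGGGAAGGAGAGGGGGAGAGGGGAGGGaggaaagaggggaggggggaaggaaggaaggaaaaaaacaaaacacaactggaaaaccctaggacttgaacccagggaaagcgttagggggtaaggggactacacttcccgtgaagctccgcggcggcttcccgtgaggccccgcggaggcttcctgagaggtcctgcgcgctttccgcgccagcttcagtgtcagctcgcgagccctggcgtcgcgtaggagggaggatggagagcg

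RNASEH1 held 2 separate C-run matches, between 221 and 56 bases upstream of the start. AQR held 1, from 203 to 181 bases upstream. RNASEH2C held 2 G-run matches next to each other in a longer tract of G runs, between 246 and 189 bases upstream. RNASEH1 and AQR were at high and RNASEH2C at low expression, while TOP1, the most abundant gene, had no match in its window. A match is a description of the letters and not a folded structure, and the CUT&Tag peaks at these promoters were not analysed here.

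Replicate 3 held the lowest TPM of the better counted among the 9 genes, with the lowest ratio in TOP1. At least 50 counts per replicate were found for 5 of the 9 genes, and all 5 were below the mean of replicates 1 and 2, with log2 ratios from -0.44 for RNASEH2B to -1.37 for TOP1. Over 5656 nuclear genes with that many counts the median was -0.54, and 87.5% were lower. The mitochondrial share of TPM was 44.2% in replicate 3 and 22.8% and 15.4% in replicates 1 and 2. When TPM was rescaled over nuclear genes alone, the ratios were 0.093 for RNASEH2B, -0.19 for AQR, -0.24 for RNASEH1, -0.28 for RNASEH2A and -0.83 for TOP1, beside a median of -0.0058 over the nuclear genes. TOP1 was then higher than only 2.60% of the nuclear genes in this ratio. The cause of the low TOP1 value in replicate 3 was not tested.

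**Figure D4:**
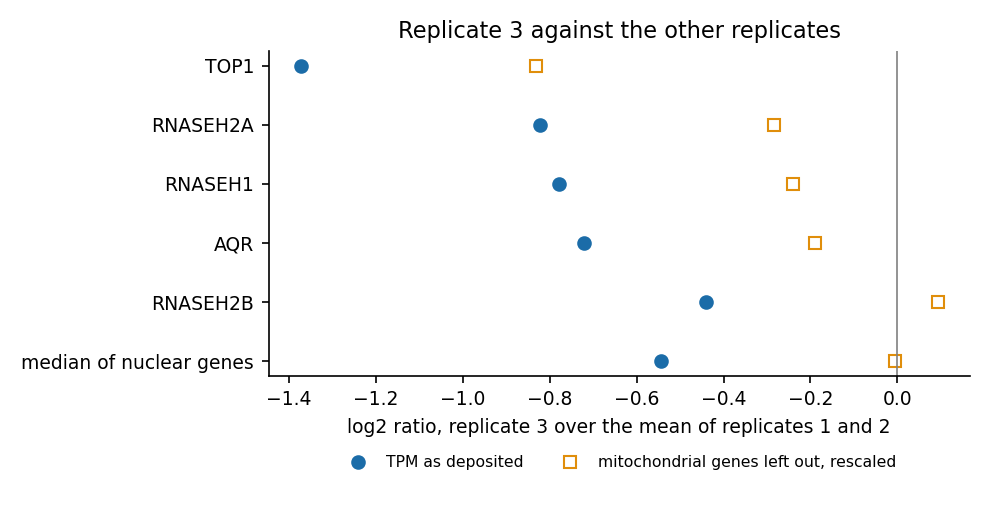
Log2 ratio of replicate 3 over the mean of replicates 1 and 2 for the 5 genes of 50 counts or more per replicate and for the median of 5656 nuclear genes, as deposited (filled circles) and with mitochondrial genes left out (open squares). TOP1 is farthest below 0 on both scales, at -1.37 and -0.83.

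With mitochondrial genes left out, the levels were 1370 ± 420 TPM for TOP1, 66.3 ± 6.18 TPM for RNASEH1, 43.2 ± 5.14 TPM for RNASEH2A and 34.8 ± 3.56 TPM for AQR (SD, n = 3). TOP1 then had 1497, 1711 and 901 TPM in replicates 1, 2 and 3, so replicate 3 was still its lowest.

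Other genes of the pathway were taken from a list of 40 factors, written from general knowledge with earlier results of these data known. Of these, 27 (67.5%) were expressed, beside 38.2% of protein-coding genes. High expression was reached by 8 of the 27 expressed factors, a category that by definition holds the top 25% of all expressed genes. Its share among expressed protein-coding genes is not given here. The median over the 40 factors was 3.32 TPM. The highest were ALYREF, an mRNA export adaptor that joins THO in the TREX complex, with 988 ± 364 TPM, TOP2A with 764 ± 248 TPM, and XRN2, the exonuclease of transcription termination, with 475 ± 147 TPM. ALYREF had 1061, 1309 and 592 TPM and was below TOP1 in replicates 1 and 2 and above it in replicate 3. In counts per 1000000 ALYREF was below TOP1 in every replicate, with 753, 879 and 509 against 2791, 3309 and 1469. The order of these factors also changed on that scale, to means of 2876 for TOP2A, 1073 for XRN2 and 713 for ALYREF.

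Among 14 helicases, 11 were expressed. DHX9, which unwinds RNA and RNA-DNA hybrids, had 64.9, 84.5 and 28.6 TPM. DHX9 thus lay above AQR in every replicate in TPM. In counts per 1000000 DHX9 had 167, 206 and 91.2 and AQR 181, 168 and 129, so AQR was above DHX9 in replicates 1 and 3. Of 11 THO and TREX factors 4 were expressed, of 4 TREX-2 factors 3, of the 5 topoisomerases and TDRD3 3, and all 4 repair factors (BRCA1, BRCA2, FANCA and FANCD2). DDX41, RTEL1, THOC6, DDX39B, ZC3H11A and TOP2B had 0 counts in every replicate, and the last 300 bases of the canonical transcript are shared throughout in all 6. Whether this sharing has a part in the 0 counts was not tested. None of the 16 factors with a 3′ end shared throughout was at high expression, compared with 8 of the 23 with at least 1 base of their own there, and 1 factor has no listed canonical transcript. Of these 8, TOP2A, FANCA and DDX5 have only 0.333%, 0.667% and 1% of these bases to themselves, so the contrast rests in part on a limit set at exactly 0.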

How the data were processed

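RNA-seq of HEK293T cells was analysed from 1 deposited table per replicate (n = 3). Per the labels, the submitters' processing notes list Trimmomatic 0.38.0, HISAT2 2.2.1 and featureCounts 2.2.1 with hg38. The settings for strand and for reads on several transcripts are not given in the sources used here. The authors deposited whole-number counts per transcript without normalization, the transcript length, and TPM, which the authors computed as count over length rescaled to 1000000. Recomputed TPM matched the deposited values.

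Transcript identifiers without version were joined to GENCODE v44 (GRCh38), matching 223558 of 247541 transcripts of 61193 genes. Counts and TPM were summed per gene. Unmatched transcripts, with 0.158% to 0.166% of the counts, stayed in the totals. Own bases of a transcript are exonic bases outside every other listed transcript of that strand. Libraries held 6262175 to 8521624 counts; Poisson intervals and the limit of 3 counts cover counting error only. With 1 condition no test was made. Categories followed the quartiles of genes at 1 TPM or more. The own bases, the categories and the motif search were tested on simulated data.

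All 9 genes were named, with the 3 highest and the 0-count genes of the 40 other factors, THO subunits, TOP2A, TOP2B, TOP3A, TDRD3, DHX9 and the 2 genes nearest to the highest one. A further gene of this rule and 1 sequence are not reported here. The 9 genes were set by name and function. The other genes, the lists and the alternatives were chosen with earlier results of these data known. The alternatives were other thresholds, no division by length, mitochondrial genes left out, single or coding transcripts, the median, protein-coding quartiles and each replicate left out. Scripts ran in Python 3.11.15 with pandas 2.3.3, numpy 2.4.6, scipy 1.17.1 and matplotlib 3.10.9.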

Additional observations from a re-analysis of the deposited data

How the results depend on the processing

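No paired analysis was possible because only 1 condition was sampled. Of the 9 genes, 8 were expressed under 8 of the 9 alternatives to this count. These alternatives do not include coding transcripts only, where RNASEH2C and THOC2 were under 1 TPM. A mean of at least 10 TPM left 4 genes, while the count over the 40 other factors went from 27 to 9 there. The median of the 7616 expressed protein-coding genes was 10.5 TPM, close to that threshold, so a large part of them also falls below it. The share of all genes at 10 TPM or more is not given here, so these counts are not read as a trait of the listed genes. Without division by length, 5 of the 8 neighbouring pairs kept their order, and the log2 ratio was 2.39 for RNASEH2A over RNASEH2B and 2.31 for RNASEH2B over RNASEH2C. With GENCODE v44 lengths, an alternative chosen after seeing the data, RNASEH2A rose above RNASEH1, and its log2 ratio was 4.35 over RNASEH2B and 5.27 over RNASEH2C. These shifts follow from the lengths used. With quartiles of protein-coding genes only, 5 of the 9 genes kept their category, and RNASEH2A and AQR were then at medium and RNASEH2B and THOC2 at low expression. THOC2 also moved to low expression without replicate 2, without division by length and with v44 lengths, RNASEH2A to medium without division by length, and AQR to medium without replicate 1. Leaving out each replicate gave log2 ratios of 3.33 to 3.598 for RNASEH2A over RNASEH2B, 4.08 to 4.76 for RNASEH2A over RNASEH2C and 0.75 to 1.16 for RNASEH2B over RNASEH2C. With protein-coding transcripts only, the means of RNASEH2B, RNASEH2C and THOC2 were 2.15, 0 and 0.120 TPM, each lower by more than 1 SD, and of the 9 genes none did so when a replicate was left out. Values under about 10 counts have a wide counting error. The part of depth and of reads left uncounted in these low values was not tested.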
